A study of Mus musculus with 4 samples.

Results

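Enzymes that cut the extracellular matrix and shed proteins from the cell surface were read out in B16F10 cells, a mouse melanoma line of C57BL/6 origin, together with their inhibitors. Members were taken by a rule on gene symbols that uses no measured value, though it was written with earlier results of these data known: all matrix metalloproteases (Mmp), all tissue inhibitors of metalloproteases (Timp), all numbered Adamts genes, 7 catalytically active Adam genes, and Plau, Plat and Plaur. This gave 56 of the 24527 genes in the table, namely 23 Mmp, 4 Timp, 19 Adamts and 7 Adam genes and 3 genes of plasminogen activation.

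The study set out to compare B16F10 cells grown as spheroids with NIH/3T3 cells, a mouse fibroblast line, against flat cultures and tumors. RNA was sequenced from a spheroid, a 2D co-culture with NIH/3T3, a 2D monoculture of B16F10 alone and a tumor grown under the skin of year-old female C57BL/6 mice, with 1 library for each of these 4 conditions and a wild-type genotype in every label. The 2D monoculture and 2D co-culture are called monoculture and co-culture from here on. According to the methods, the cultures used a B16F10 line that carries green fluorescent protein in the cytoplasm, green cells were sorted away from the fibroblasts, and a dye excluded dead cells. The methods describe the tumor cells as sorted too, whereas the label of that library names snap-frozen tumor. Sorting by a reporter limits the spheroid and co-culture libraries to cells that were green, but RNA of other cells could still be present, and the day of culture at which the sequenced cells were taken was not stated in the sources used here.

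Matrix metalloproteases are zinc enzymes made as inactive proenzymes, and most are secreted while a few are held at the cell membrane. TIMP proteins bind their active sites and block them, and Timp3 also blocks several ADAM and ADAMTS enzymes. ADAM proteins are membrane-bound sheddases of growth factors, cytokines and adhesion molecules, ADAMTS proteins are secreted enzymes that cut procollagens and proteoglycans, and the plasminogen activators turn plasminogen into plasmin, which digests fibrin and activates several MMP proenzymes.

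The 4 libraries held between 118896900 and 150028663 reads on genes. Counts were scaled to CPM, a gene's reads over a common total per library, with TMM factors, and 3 reads came to between 0.0185 and 0.0262 CPM, which is the level that a count of 0 allows. A log2 ratio is given with its 95% exact counting interval in parentheses, which covers counting error only. No condition was replicated, so the spread between samples of a condition is unknown and p-values are left out, and fewer cells of a type cannot be told apart from less RNA per cell. Of the 56 members, 38 had a mean of at least 1 CPM over the libraries, 18 were below it, and among these Mmp7 and Mmp20 had no read in any library. A member is called over 2-fold higher or lower when its ratio exceeds that size after 1 CPM is added to both values.

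All 8 melanocyte markers examined (Mitf, Tyr, Tyrp1, Dct, Pmel, Mlana, Sox10 and Slc45a2) were detected in every library, between 70.3 and 8948 CPM. The tumor library also held the markers of host tissue: the 10 myeloid markers summed to 2062 CPM against 10.6 to 30.0 CPM in the cultures, and 10 of 10 were over 2-fold higher than in the monoculture. The 9 fibroblast markers summed to 2728 CPM in the tumor, 679 CPM in the co-culture, 36.5 in the spheroid and 17.6 in the monoculture. The 5 skeletal muscle markers summed to 4599 CPM in the tumor against 3.29 to 12.4 CPM in the cultures. Of the 5 neutrophil markers, 4 were over 2-fold higher in the tumor than in the monoculture, and Ly6g had no read in any library. Together the 5 reached 18.2 CPM in the tumor and at most 0.119 CPM in a culture.

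Mmp14 and Timp2 were among the 3 highest members per kilobase in each culture, and by CPM the secreted Adamts1 was highest in the monoculture, at 477. Mmp14, a transmembrane collagenase that also activates proMMP2, stood at 514.5 CPM in the spheroid, 425.5 in the co-culture, 329 in the monoculture and 173 in the tumor. Per kilobase of exon it led all members in the spheroid with 198 CPM per kb, in the co-culture with 164 and in the monoculture with 127, and in the tumor it came second, with 66.7 CPM per kb, to Timp1 with 127. The order from high to low was spheroid, co-culture, monoculture and tumor, and the log2 ratio was 0.65 (0.63 to 0.66) for spheroid to monoculture, 0.37 (0.35 to 0.39) for co-culture to monoculture and -0.92 (-0.94 to -0.90) for tumor to monoculture. Spheroid to tumor, at 1.57 (1.55 to 1.59), was over 2-fold, but not after correction for GC content and length, at 0.70. Mmp14 took 89.9 to 92.0% of the summed CPM per kb of all Mmp genes in the 3 cultures and 55.7% in the tumor.

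**Figure D1:**
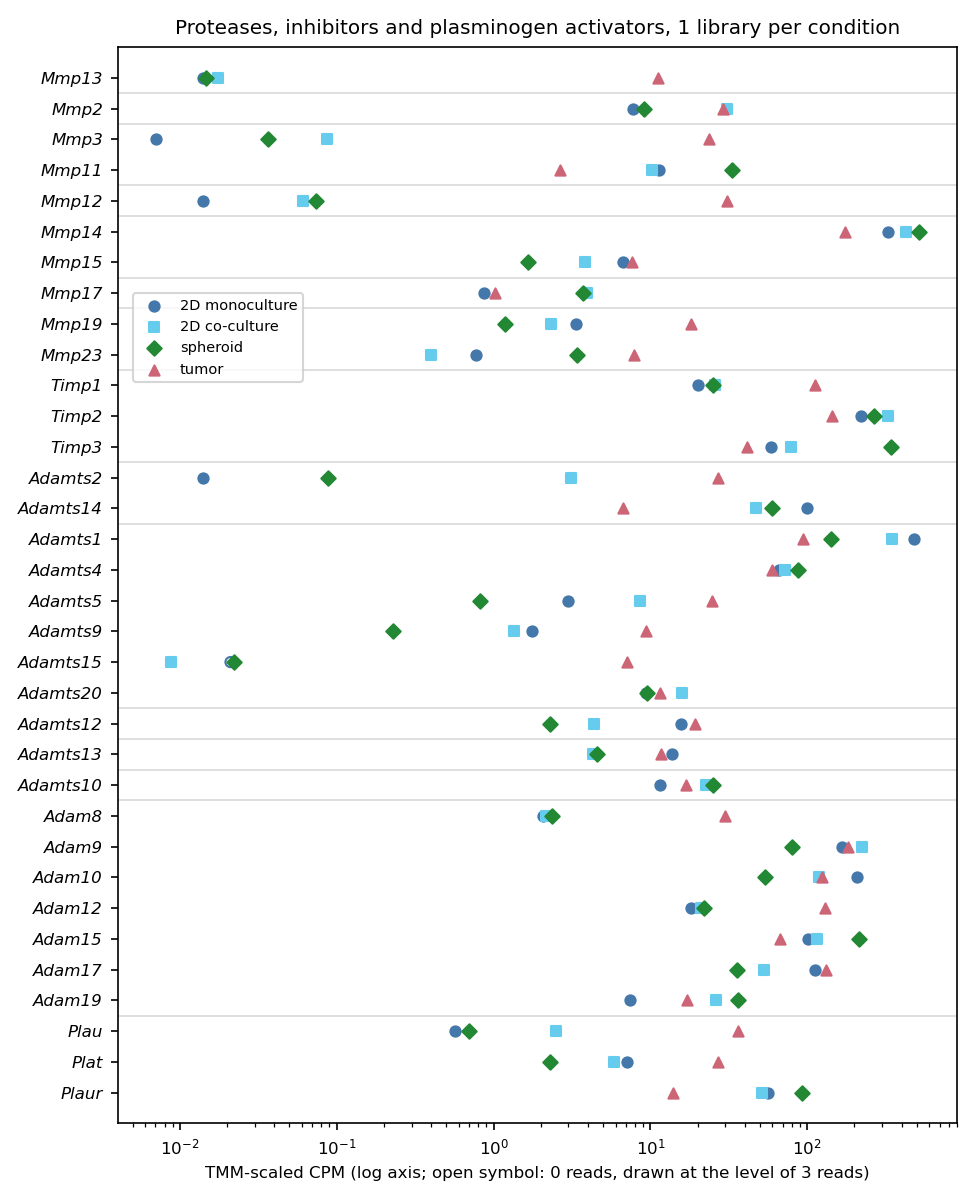
TMM-scaled CPM on a log axis of the 34 members that reached 5 CPM in a library or were over 2-fold from the monoculture in the spheroid or co-culture, 1 symbol per library, with lines between classes. The tumor symbols of Mmp3, Mmp12 and Mmp13 lie between 11.1 and 30.8 CPM while the culture symbols of the same genes lie below 0.1 CPM, and Timp3 in the spheroid stands apart at 342 CPM.

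The other membrane-type enzymes were far lower. Mmp15, a second transmembrane type, had 1.67 CPM in the spheroid, 3.84 in the co-culture, 6.70 in the monoculture and 7.60 in the tumor. It was thus lowest in the spheroid, with a log2 ratio of -2.01 (-2.22 to -1.80) to the monoculture, the opposite direction to Mmp14. Mmp17, which is anchored by a lipid, had 3.74 CPM in the spheroid, 3.96 in the co-culture, 0.870 in the monoculture and 1.02 in the tumor. Both cultures that held fibroblasts were higher than the monoculture, by 2.10 (1.82 to 2.40) and 2.19 (1.90 to 2.48) on the log2 scale, while the tumor was near the monoculture. Mmp24 had at most 17 reads in any library, and Mmp16 and Mmp25 reached 0.265 and 0.801 CPM in the tumor with at most 1 read in each culture.

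Of the inhibitors, Timp3, which is bound to the matrix, had 342 CPM in the spheroid, 78.2 in the co-culture, 58.3 in the monoculture and 41.4 in the tumor, from 46553 reads in the spheroid and 8310 in the monoculture. The spheroid value stood above all others, 5.86-fold the monoculture value with a log2 ratio of 2.55 (2.52 to 2.58), and the co-culture with the same fibroblasts differed from the monoculture by 0.42 (0.38 to 0.47) only. Spheroid to co-culture was 2.13 (2.10 to 2.16) and spheroid to tumor 3.05 (3.01 to 3.08). No other member had a larger ratio upward from monoculture to spheroid, with 1 CPM added, among the 38. Correction for GC content and length, with a transcript GC content of 46.8%, raised the ratio to the monoculture to 3.13.

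Timp2, which takes part in the activation of proMMP2 by Mmp14 as well as blocking it, had 268 CPM in the spheroid, 326.5 in the co-culture, 221 in the monoculture and 145 in the tumor. The co-culture was highest and the tumor lowest, and both the spheroid and the tumor were within 2-fold of the monoculture, at 0.28 (0.26 to 0.30) and -0.61 (-0.64 to -0.59). Timp1, a secreted inhibitor, had 24.9 CPM in the spheroid, 25.8 in the co-culture, 20.1 in the monoculture and 112 in the tumor. The cultures differed by at most 0.36 from the monoculture on the log2 scale, and the tumor was higher by 2.48 (2.42 to 2.54). Timp4 was sparse, with 1 reads in the spheroid, 59 in the co-culture, 17 in the monoculture and 82 in the tumor. Summed per kilobase, the Timp genes came to 173 CPM per kb in the spheroid, 134 in the co-culture, 94.8 in the monoculture and 175 in the tumor, against 220.4 (spheroid), 181.5 (co-culture), 138 (monoculture) and 119.8 (tumor) for the Mmp genes.

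The ratio of Timp to Mmp transcripts, both summed per kilobase, was thus 0.785 in the spheroid, 0.738 in the co-culture, 0.689 in the monoculture and 1.46 in the tumor. Spheroid and tumor had nearly the same Timp sum per kilobase with different make-up. Timp3 supplied 41.9% of it in the spheroid and 5.01% in the tumor. Timp1 supplied 16.3% in the spheroid and 72.6% in the tumor, and in both 2D cultures Timp2 supplied most, with 65.8% in co-culture and 62.9% in monoculture. Without division by exon length, the Timp genes summed to 635 CPM in the spheroid and 299 in the tumor. The Mmp genes then summed to 571 and 317 CPM, so Timp exceeded Mmp in the spheroid and not in the tumor. The near equality and the order of spheroid and tumor thus depend on the division by length, in which Timp1 has 883 exon bases. All of these are transcript sums, and they say nothing of the amount of active enzyme.

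**Figure D2:**
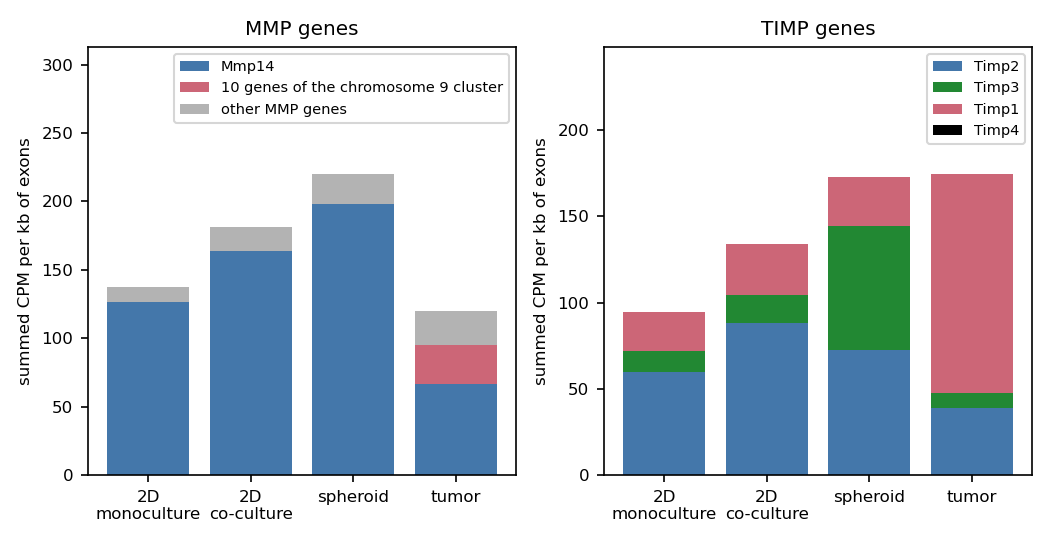
Summed CPM per kb of exon in each library (bars, from 0) for the Mmp genes on the left, split into Mmp14, the 10 genes of the chromosome 9 cluster and the others, and for the Timp genes on the right. The spheroid and tumor bars of the Timp genes are of similar height, at 173 and 175 CPM per kb, but Timp3 fills 41.9% of the first and Timp1 72.6% of the second.

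A block of 10 Mmp genes on chromosome 9, chr9:7272514-7699585 in GRCm38.p6, was nearly silent in every culture. It holds collagenases, stromelysins, matrilysin and macrophage elastase, and it gave 17 reads in the spheroid, 22 in the co-culture, 8 in the monoculture and 11392 in the tumor. These were 0.125, 0.192, 0.0562 and 70.2 CPM. In the tumor the cluster made up 23.4% of the summed Mmp CPM per kb, and in each culture at most 0.0455%. Not every gene of the cluster was seen in the tumor: 8 of the 10 had a read, Mmp1a and Mmp1b had 1 read each, and Mmp7 and Mmp20 had none. Mmp1a and Mmp1b are related genes, and whether their few reads were assigned to the right one was not tested.

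Because these genes lie side by side and were read almost entirely in the tumor, the 250 bases before the RefSeq start site of 4 of them are shown, on the plus strand of GRCm38.p6: Mmp13 at chr9:7272264-7272513, Mmp3 at chr9:7445572-7445821, Mmp10 at chr9:7502092-7502341 and Mmp12 at chr9:7344147-7344396. Capitals mark each match to TGANTCA, the core of the AP-1 site, and to TATAAA, the TATA box, both searched on both strands. Mmp12, which had the most tumor reads of the cluster, holds neither.
Mmp13: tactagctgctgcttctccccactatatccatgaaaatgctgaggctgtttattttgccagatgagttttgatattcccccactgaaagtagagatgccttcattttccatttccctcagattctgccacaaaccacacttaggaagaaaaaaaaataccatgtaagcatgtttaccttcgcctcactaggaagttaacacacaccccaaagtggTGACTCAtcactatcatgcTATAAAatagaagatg
Mmp3: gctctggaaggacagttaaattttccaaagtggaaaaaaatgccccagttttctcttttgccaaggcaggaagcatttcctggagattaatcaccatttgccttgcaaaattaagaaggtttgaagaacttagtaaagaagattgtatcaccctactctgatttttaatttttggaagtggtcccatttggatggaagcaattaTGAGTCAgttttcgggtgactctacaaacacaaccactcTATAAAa
Mmp10: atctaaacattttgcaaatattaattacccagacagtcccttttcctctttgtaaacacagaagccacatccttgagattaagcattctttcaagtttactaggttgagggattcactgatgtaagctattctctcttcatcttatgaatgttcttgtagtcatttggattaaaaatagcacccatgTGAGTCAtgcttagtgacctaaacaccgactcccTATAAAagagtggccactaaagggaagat
Mmp12: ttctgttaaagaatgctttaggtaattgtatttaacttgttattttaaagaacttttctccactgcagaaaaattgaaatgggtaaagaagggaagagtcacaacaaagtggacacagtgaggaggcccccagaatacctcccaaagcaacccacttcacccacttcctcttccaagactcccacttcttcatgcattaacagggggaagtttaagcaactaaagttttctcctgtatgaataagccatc

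In Mmp13 the AP-1 letters began 35 bases before the start site and TATAAA 16 bases before it, in Mmp3 they began 46 and 7 bases before it, and in Mmp10 63 and 29 bases before it. Over all 27025 promoters in the RefSeq table, TGANTCA occurred in 6.85% and TATAAA in 13.0%. Of the members, 38 matched a promoter in that table. The AP-1 letters were in 8 of these, 7 of the cluster and Plaur. TATAAA was in 9, the same 7 of the cluster with Adamts1 and Mmp21. Neighbouring genes of the cluster share sequence, so these matches are not independent of each other. Of the cluster genes that hold both, Mmp3, Mmp13 and Mmp10 had 3846, 1803 and 131 reads in the tumor, Mmp1a and Mmp1b had 1 each, and Mmp7 and Mmp20 had none. Mmp8, Mmp12 and Mmp27 hold neither and had 427, 5004 and 179. A match of letters is not a measured binding site.

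Among the genes of the cluster, Mmp12, the macrophage elastase, had 10 reads in the spheroid, 7 in the co-culture, 2 in the monoculture and 5004 in the tumor, or 30.8 CPM in the tumor. Its log2 ratio of tumor to monoculture was 11.10 (9.25 to 14.15), wide because the monoculture held so few reads. Mmp3, stromelysin 1, had 5 reads in the spheroid, 10 in the co-culture, 1 in the monoculture and 3846 in the tumor, which was 23.7 CPM in the tumor and 11.72 (9.24 to 17.02) above the monoculture on the log2 scale. Mmp13, the main interstitial collagenase of the mouse, had 2 reads in the spheroid, 2 in the co-culture, 2 in the monoculture and 1803 in the tumor, which was 11.1 CPM in the tumor, with a ratio of 9.63 (7.77 to 12.68). All 3 genes were thus measured in the tumor and at or near the level of single reads elsewhere. Mmp8, the neutrophil collagenase, had 0 reads in the spheroid, 3 in the co-culture, 1 in the monoculture and 427 in the tumor. Mmp10, stromelysin 2, had 131 reads in the tumor and none in a culture, at least 38.3-fold above the 3-read floor of the monoculture, and Mmp27 had 179 reads in the tumor and 1 in the monoculture.

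**Figure D3:**
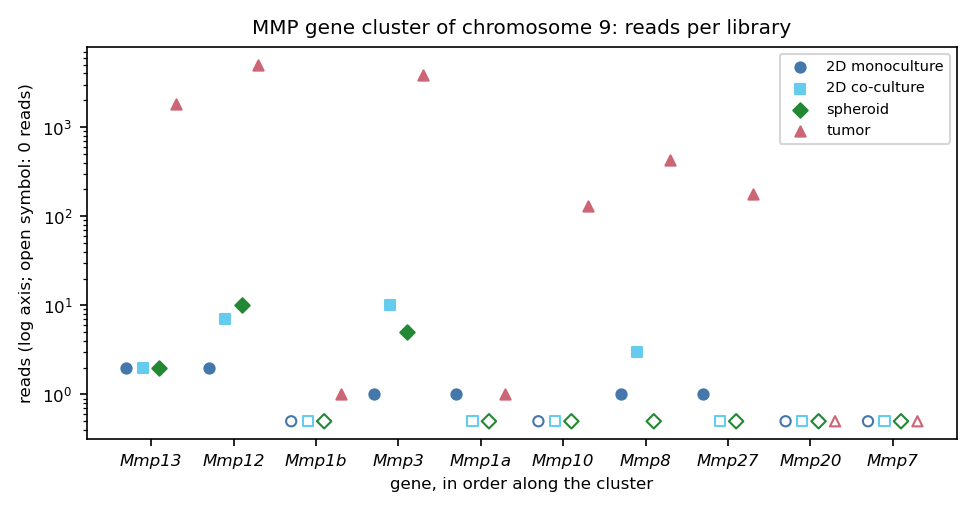
Reads per gene (log axis) of the 10 Mmp genes of chromosome 9 in their order along the cluster, 1 symbol per library, with open symbols for 0 reads. In the tumor 6 genes lie between 131 and 5004 reads, no culture symbol lies above 10 reads, and Mmp20 and Mmp7 are at 0 in all 4 libraries.

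The spheroid and co-culture held small shares of the tumor levels of these genes. For Mmp13, Mmp3 and Mmp12 the spheroid had 0.132, 0.155 and 0.238% of the tumor CPM, and the co-culture 0.157, 0.369 and 0.198%. Myh4, a myosin of fast skeletal muscle, stood at 0.124% of its tumor level in the spheroid and 0.158% in the co-culture, and had no read in the monoculture. Over the 5 skeletal muscle markers the share ran from 0.124 to 1.35% in the spheroid (median 0.130%), from 0.136 to 0.569% in the co-culture (median 0.195%) and from 0 to 0.446% in the monoculture (median 0.0294%). The monoculture held 0.126, 0.0296 and 0.0456% of the tumor CPM of Mmp13, Mmp3 and Mmp12. Whether reads of the tumor library reached the culture libraries was not tested, so the few culture reads of these genes cannot be taken as their expression there.

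The gelatinases, which cut denatured and basement membrane collagen, lie outside the cluster. Mmp2 had 9.13 CPM in the spheroid, 31.0 in the co-culture, 7.78 in the monoculture and 28.9 in the tumor. The co-culture and the tumor were high and close to each other, and the spheroid and the monoculture were low and close to each other. The log2 ratio to the monoculture was 1.99 (1.90 to 2.09) in the co-culture, 1.89 (1.79 to 1.99) in the tumor and 0.23 (0.11 to 0.35) in the spheroid, and spheroid to co-culture was -1.76 (-1.86 to -1.67). Mmp9 had 0.712 CPM in the spheroid, 1.07 in the co-culture, 0.330 in the monoculture and 4.48 in the tumor, so all were low and the tumor highest, at 3.77 (3.34 to 4.22) against the monoculture.

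Mmp11, or stromelysin 3, is processed by furin inside the cell and secreted in active form. It had 33.0 CPM in the spheroid, 10.2 in the co-culture, 11.3 in the monoculture and 2.67 in the tumor. The spheroid was highest and the tumor lowest, with a log2 ratio of 1.54 (1.46 to 1.62) for spheroid to monoculture, -2.09 (-2.25 to -1.94) for tumor to monoculture and 3.63 (3.49 to 3.78) for spheroid to tumor. The co-culture, at -0.15 (-0.26 to -0.04), was close to the monoculture. Correction for GC content and length brought spheroid to monoculture to 0.97, below 2-fold.

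Mmp19, a secreted enzyme of basement membrane, had 1.18 CPM in the spheroid, 2.34 in the co-culture, 3.38 in the monoculture and 18.3 in the tumor, lowest in the spheroid with -1.52 (-1.79 to -1.26) against the monoculture and highest in the tumor with 2.44 (2.30 to 2.58). Of its exon bases, 22.9% overlap Tmem198b on the opposite strand, and reads of the pair cannot be told apart without strand information. Mmp23 had 3.38 CPM in the spheroid, 0.402 in the co-culture, 0.772 in the monoculture and 7.83 in the tumor. Spheroid and tumor were both higher than the 2D cultures, by 2.13 (1.83 to 2.45) and 3.34 (3.06 to 3.64) against the monoculture. After correction for GC content and length, spheroid to monoculture was 1.39 with nothing added, and the ratio with 1 CPM added was within 2-fold. Mmp28 ranged from 1.17 to 3.14 CPM, and Mmp21 had at most 10 reads.

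Of the secreted ADAMTS enzymes, those that trim the ends of procollagens differed from each other. Adamts2, which removes the amino end of fibrillar procollagens, had 12 reads in the spheroid, 359 in the co-culture, 2 in the monoculture and 4394 in the tumor, or 3.14 CPM in the co-culture and 27.1 in the tumor. It was seen mainly in these 2 libraries, with a log2 ratio of 7.80 (5.94 to 10.85) for co-culture to monoculture and 10.91 (9.06 to 13.96) for tumor to monoculture. Adamts14, of the same class, had 59.5 CPM in the spheroid, 47.1 in the co-culture, 99.8 in the monoculture and 6.65 in the tumor. The tumor was lowest here, at -3.91 (-4.00 to -3.82) against the monoculture, with the co-culture at -1.08 (-1.13 to -1.04) and the spheroid at -0.74 (-0.79 to -0.71). Adamts3 had 78 reads in the tumor (0.480 CPM) and none in a culture.

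Adamts1, which cuts versican and aggrecan, was the most abundant of the proteoglycan-cutting enzymes, with 141 CPM in the spheroid, 347 in the co-culture, 477 in the monoculture and 94.4 in the tumor. Its level in the monoculture was above the other 3, and per kilobase it was second there to Mmp14 with 97.6 CPM per kb. The log2 ratio to the monoculture was -1.75 (-1.78 to -1.73) in the spheroid, -0.46 (-0.47 to -0.44) in the co-culture and -2.34 (-2.36 to -2.31) in the tumor. Adamts4, an aggrecanase, had 87.7 CPM in the spheroid, 72.0 in the co-culture, 66.5 in the monoculture and 59.7 in the tumor, which is within 2-fold in every comparison. Adamts20, which acts on versican in pigmented skin, was also even, with 9.45 CPM in the spheroid, 15.99 in the co-culture, 9.43 in the monoculture and 11.5 in the tumor.

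Adamts5, the other main aggrecanase, had 0.823 CPM in the spheroid, 8.53 in the co-culture, 2.99 in the monoculture and 24.7 in the tumor. The order was tumor, co-culture, monoculture and spheroid, with 1.51 (1.35 to 1.68) for co-culture to monoculture and -1.86 (-2.18 to -1.56) for spheroid to monoculture, so that spheroid and co-culture differed by -3.37 (-3.67 to -3.09). The spheroid value after correction for GC content and length was -0.70. Adamts9, a versican-cutting enzyme, had 0.228 CPM in the spheroid, 1.35 in the co-culture, 1.75 in the monoculture and 9.31 in the tumor, again lowest in the spheroid, at -2.95 (-3.54 to -2.40). Adamts15 had 3 reads in the spheroid, 1 in the co-culture, 0 in the monoculture and 1157 in the tumor, in the tumor 7.13 CPM and elsewhere no more than the floor, and Adamts8 had 1.25 CPM in the tumor.

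Adamts12, which cuts cartilage oligomeric matrix protein, had 2.30 CPM in the spheroid, 4.34 in the co-culture, 15.8 in the monoculture and 19.3 in the tumor. Both cultures with fibroblasts were lower than the monoculture, at log2 ratios of -2.78 (-2.95 to -2.60) in the spheroid and -1.86 (-2.00 to -1.72) in the co-culture, and the tumor was near the monoculture. Adamts13, the protease of von Willebrand factor, had 4.55 CPM in the spheroid, 4.32 in the co-culture, 13.8 in the monoculture and 11.7 in the tumor. It showed the same arrangement, with -1.60 (-1.73 to -1.47) and -1.68 (-1.82 to -1.53). Adamts10, which binds fibrillin, had 25.2 CPM in the spheroid, 22.6 in the co-culture, 11.5 in the monoculture and 16.9 in the tumor and went the other way, at 1.13 (1.04 to 1.21) and 0.97 (0.88 to 1.06), but at 0.42 for the spheroid after correction for GC content and length. Adamts7, at 1.40 to 3.54 CPM, and Adamts6, at 0.140 to 4.04 CPM, were low, and Adamts16, Adamts17, Adamts18 and Adamts19 were at or below 0.561 CPM in every library.

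The membrane sheddases were measured at high depth in all 4 libraries. Adam10, which cuts Notch, cadherins and many other substrates, had 53.8 CPM in the spheroid, 119 in the co-culture, 209 in the monoculture and 124 in the tumor. The order from high to low in culture was monoculture, co-culture and spheroid, with -0.81 (-0.84 to -0.78) and -1.96 (-1.99 to -1.92) against the monoculture. Adam17, the sheddase of tumor necrosis factor and of ligands of the epidermal growth factor receptor, had 35.7 CPM in the spheroid, 53.2 in the co-culture, 112 in the monoculture and 132 in the tumor. It had the same order in culture, with -1.07 (-1.11 to -1.03) and -1.65 (-1.70 to -1.60). In the tumor, Adam10 was at -0.76 (-0.78 to -0.73) and Adam17 at 0.24 (0.21 to 0.27) against the monoculture.

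Adam9 had 79.9 CPM in the spheroid, 223 in the co-culture, 167 in the monoculture and 183 in the tumor, lowest in the spheroid, at -1.06 (-1.10 to -1.03) against the monoculture and -1.48 (-1.51 to -1.45) against the co-culture. Adam15 had 213 CPM in the spheroid, 115 in the co-culture, 101 in the monoculture and 67.5 in the tumor, and here the spheroid was highest, at 1.07 (1.04 to 1.10) against the monoculture and 1.66 (1.63 to 1.69) against the tumor. These genes differ in base content: the transcripts of Adam10, Adam17 and Adam9 hold 42.1, 45.1 and 46.6% GC and that of Adam15 59.7%. After correction for GC content and length, spheroid to monoculture was -1.17 for Adam10, -0.92 for Adam17, -0.62 for Adam9 and 0.33 for Adam15, and of these only Adam10 was still over 2-fold. Spheroid to tumor for Adam15 changed sign under that correction, to -0.15. Of the exons of Adam17, 6.86% overlap Iah1 on the opposite strand.

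Adam19, or meltrin beta, a sheddase of neuregulins, had 36.2 CPM in the spheroid, 26.0 in the co-culture, 7.38 in the monoculture and 17.0 in the tumor. It was lowest in the monoculture, with 2.29 (2.20 to 2.39) in the spheroid, 1.82 (1.72 to 1.92) in the co-culture and 1.20 (1.10 to 1.31) in the tumor. The spheroid ratio was 2.30 after correction for GC content and length. Adam12, or meltrin alpha, had 21.9 CPM in the spheroid, 21.0 in the co-culture, 18.0 in the monoculture and 131 in the tumor, and Adam8, a leukocyte sheddase, had 2.37 CPM in the spheroid, 2.15 in the co-culture, 2.07 in the monoculture and 30.0 in the tumor. Both were even across the cultures and higher in the tumor, by 2.86 (2.80 to 2.92) and 3.86 (3.69 to 4.03) against the monoculture.

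**Figure D4:**
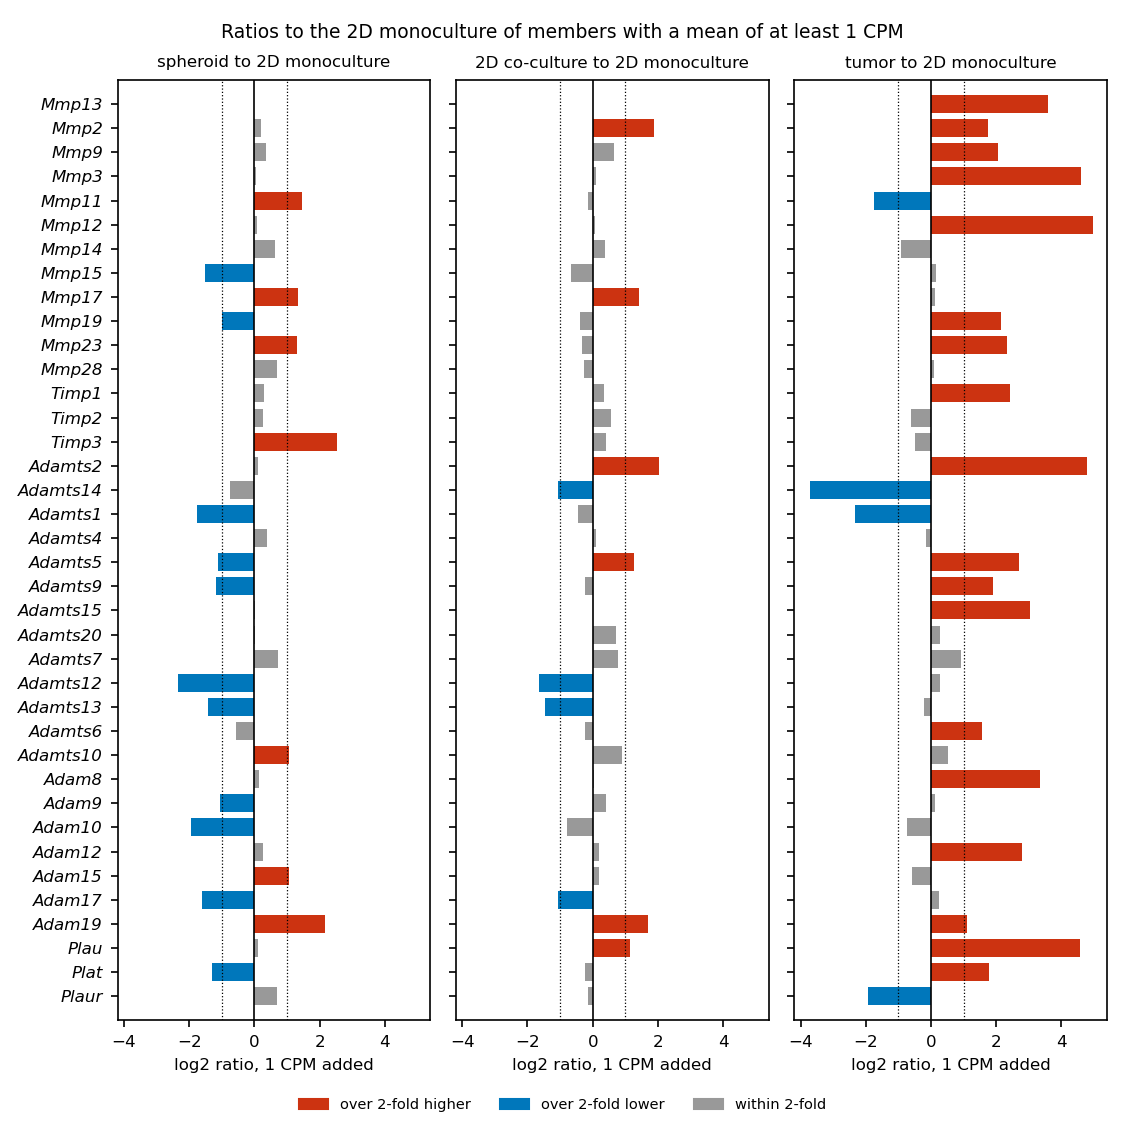
Log2 ratio to the monoculture, with 1 CPM added, of the 38 members with a mean of at least 1 CPM, in the spheroid, co-culture and tumor (1 library each, no error bars). Red bars are over 2-fold higher, blue over 2-fold lower and grey within 2-fold (dotted lines): 7 red and 11 blue in the spheroid, 6 and 4 in the co-culture, and 18 and 4 in the tumor.

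In plasminogen activation, Plau (urokinase) had 0.698 CPM in the spheroid, 2.49 in the co-culture, 0.569 in the monoculture and 36.1 in the tumor. The tumor was higher than the monoculture by 5.99 (5.67 to 6.32), the co-culture by 2.13 (1.77 to 2.50), and the spheroid, at 0.29 (-0.15 to 0.74), had an interval that includes 0. Plat, the tissue-type activator, had 2.30 CPM in the spheroid, 5.88 in the co-culture, 7.05 in the monoculture and 26.8 in the tumor, with the tumor higher by 1.93 (1.83 to 2.03) and the spheroid at -1.62 (-1.80 to -1.43). Plaur, the receptor that holds urokinase at the cell surface, had 92.4 CPM in the spheroid, 51.5 in the co-culture, 56.4 in the monoculture and 14.0 in the tumor. Here the tumor was lowest, at -2.01 (-2.08 to -1.95) against the monoculture, and the spheroid highest, at 0.71 (0.67 to 0.75).

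Counted over the 38 members that passed the filter, spheroid against monoculture gave 7 members over 2-fold higher, beside 11.2% of all 12728 genes that passed, and 11 members lower, beside 17.9%. The 7 were Mmp11, Mmp17, Mmp23, Timp3, Adamts10, Adam15 and Adam19, which is 18.4% of the 38. The 11 were Mmp15, Mmp19, Adamts1, Adamts5, Adamts9, Adamts12, Adamts13, Adam9, Adam10, Adam17 and Plat, or 28.9%. The other 20 were within 2-fold, and the median log2 ratio was 0.11, against 0.05 over all genes. After correction for GC content and length, 3 of the 7 (Mmp17, Timp3 and Adam19) and 6 of the 11 (Mmp15, Adamts1, Adamts12, Adamts13, Adam10 and Plat) were still over 2-fold, and Adamts20 and Adam12 were now counted as higher and Adamts14 as lower. With upper quartile factors in place of TMM, Mmp19 and Adam9 were within 2-fold.

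Across genes, the ratio of spheroid to monoculture was higher for transcripts of higher GC content, with Spearman's rho of 0.48 over the 38 members and 0.49 over 12466 genes. The points share the same 2 libraries, and genes are not independent replicates. The members over 2-fold higher had a median GC content of 56.6% and those lower of 48.6%. For co-culture to monoculture rho was 0.04 over the members and 0.21 over all genes, for spheroid to co-culture 0.47 and 0.41, for tumor to monoculture -0.35 and -0.39, and for spheroid to tumor 0.53 and 0.55.

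**Figure D5:**
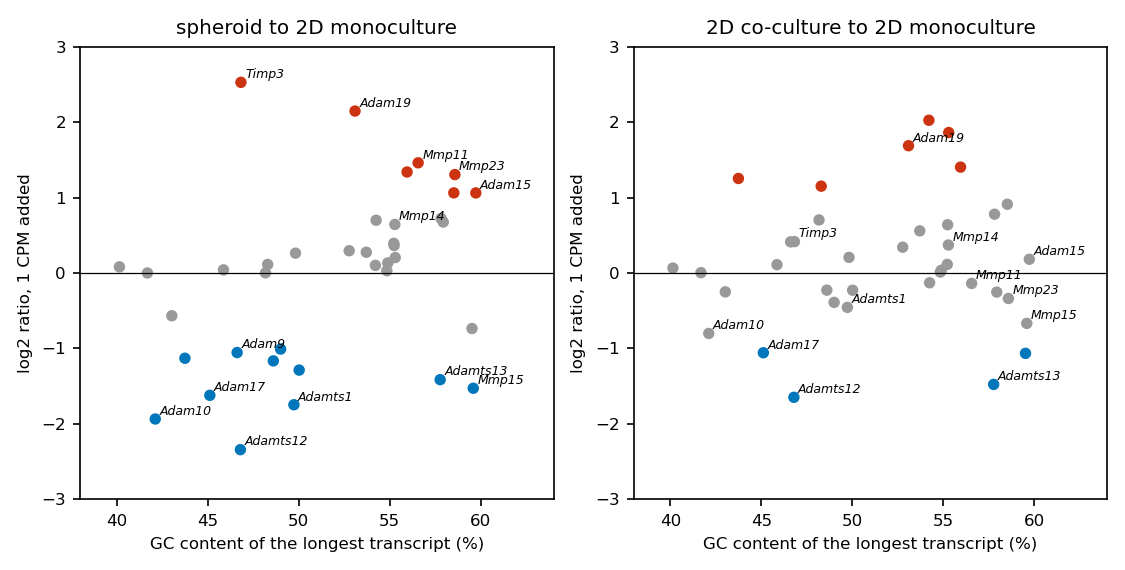
Log2 ratio to the monoculture, with 1 CPM added, against the GC content of the longest transcript for the 38 members (1 point per gene), with the spheroid on the left and the co-culture on the right; red points are over 2-fold higher, blue over 2-fold lower and grey within 2-fold. In the spheroid Adam10, at 42.1% GC, lies low and Adam15, at 59.7% GC, lies high, while Timp3, at 46.8% GC, lies above both.

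For co-culture against monoculture, 6 members were over 2-fold higher, or 15.8% of the 38 beside 3.79% of all genes, and 4 were lower, or 10.5% beside 9.51%. The 6 were Mmp2, Mmp17, Adamts2, Adamts5, Adam19 and Plau, and the 4 were Adamts14, Adamts12, Adamts13 and Adam17. With upper quartile factors Adamts14 and Adam17 were within 2-fold. The median log2 ratio was 0.09, against 0.01 over all genes. Some fibroblast markers were higher in the co-culture too. Col1a2, a chain of type I collagen, had 4.05 CPM in the spheroid, 514 in the co-culture, 2.97 in the monoculture and 622 in the tumor. Thy1, a surface marker of fibroblasts, had 0.286 CPM in the spheroid, 12.5 in the co-culture, 0.0211 in the monoculture and 49.2 in the tumor. Pdgfrb, another marker of the list, was close in both, with 23.5 CPM in the spheroid, 27.7 in the co-culture and 11.0 in the monoculture. Mmp17 and Adam19 had 3.74 and 36.2 CPM in the spheroid and 3.96 and 26.0 in the co-culture. In the co-culture, 5 of the 9 fibroblast markers were over 2-fold above the monoculture and none was at 0. In the spheroid, 3 of the 9 were over 2-fold above it. The part of fibroblast RNA in the ratios of the 6 higher members was not tested.

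Spheroid against co-culture, where both cultures held fibroblasts before sorting, gave 3 members over 2-fold higher (7.89%, beside 9.54% of all genes) and 8 lower (21.1%, beside 8.46%). The higher ones were Mmp11, Mmp23 and Timp3. The lower ones were Mmp2, Adamts2, Adamts1, Adamts5, Adam9, Adam10, Plau and Plat. After correction for GC content and length, Adamts1, Adam10 and Plau were within 2-fold with 1 CPM added, and Mmp15 was counted as lower. The summed fibroblast markers were 679 CPM in the co-culture, of which Col1a2 gave 514. In the spheroid they were 36.5 CPM, of which Pdgfrb gave 23.5. Col1a1, Col1a2, Col3a1, Dcn, Pdgfra and Thy1 were over 2-fold lower in the spheroid than in the co-culture. Pdgfrb, Lum and Fap were within 2-fold with 1 CPM added. The part of fibroblast RNA in the ratios of the 8 lower members was again not tested.

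For tumor against monoculture, 18 members were over 2-fold higher, or 47.4% beside 14.8% of all genes, and 4 were lower (Mmp11, Adamts14, Adamts1 and Plaur), or 10.5% beside 18.2%. The median log2 ratio was 0.72, against -0.14 over all genes. This count cannot be read as a share of the family, since 6 members (Mmp3, Mmp9, Mmp12, Mmp13, Adamts6 and Adamts15) passed the filter on the strength of the tumor library and so had to differ. At a mean of at least 10 CPM, 5 of 20 members were higher and the median was -0.01. No share or median of all genes is given at that filter, so these values cannot be set beside 14.8% or read as a result about the members. Host markers moved with the higher members, as given above for myeloid, fibroblast and muscle lists, and so did 7 of the 8 endothelial markers. The 8 summed to 302 CPM in the tumor and 27.6 to 78.6 CPM in the cultures. Most of each culture sum came from Egfl7, with 24.5 to 74.0 CPM, the marker that was within 2-fold in the tumor. The part of host cells in the tumor ratios was not tested.

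Spheroid against tumor gave 8 members over 2-fold higher, or 21.1% beside 26.8% of all genes, and 23 lower, or 60.5% beside 27.6%. The higher ones were Mmp11, Mmp14, Mmp17, Timp3, Adamts14, Adam15, Adam19 and Plaur. The median log2 ratio was -1.38, against 0.08 over all genes. Of the 6 members that passed the filter on the strength of the tumor, Mmp3, Mmp12, Mmp13, Adamts6 and Adamts15 had to be over 2-fold lower here. Mmp9 had to be lower, but not by over 2-fold. The count is thus again no share of the family. At a mean of at least 10 CPM, 8 of 20 members were lower and the median was 0.55. Again no share or median of all genes is given at that filter, so these values cannot be set beside 27.6%. After correction for GC content and length, Mmp11, Timp3 and Plaur were still over 2-fold higher in the spheroid. Comparisons that use the same library are not independent of each other.

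By the library in which each gene was highest, 20 of the 38 members (52.6%) had their maximum in the tumor, as did 31.0% of all genes, 9 (23.7%) in the spheroid, 5 (13.2%) in the co-culture and 4 (10.5%) in the monoculture. The tumor tally includes the 6 members that passed the filter through their tumor values, whose maximum was fixed by that. The corresponding shares of all genes were 34.7% for the spheroid, 15.8% for the co-culture and 18.5% for the monoculture. Of the 18 members below the filter, only Mmp24 had its own maximum in the spheroid, with 17 reads in the spheroid, 3 in the co-culture, 10 in the monoculture and 1 in the tumor.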

How the data were processed

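Polyadenylated RNA was made into libraries with a kit that does not mark strand and was sequenced in pairs on an Illumina HiSeq. The authors deposited read counts per gene without normalization, as whole numbers, made according to the submitters' processing notes with Trimmomatic, STAR and featureCounts on mm10, with no version named. Counts of genes with overlapping exons or close copies may be split or lost by this counting. Columns were assigned to conditions from the labels, with 1 library each.

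CPM values were computed from the counts with TMM factors of edgeR 4.0.16 in R 4.3.3, and the alternatives used DESeq2 1.42.0. Other steps used Python 3.11.15, numpy 2.4.6, pandas 2.3.3, scipy 1.17.1 and matplotlib 3.10.9. The filter kept genes that averaged at least 1 CPM (12728 of 24527). A call is a change over 2-fold after 1 CPM is added to each value, whereas ratios of single genes have nothing added and carry 95% exact binomial intervals. A count of 0 was set to 3 reads, and the ratio is then a bound. The NOISeq and GFOLD tests of the study were not run. Exon length and GC content came from GENCODE M21 transcripts, preferring those matched to RefSeq, for 97.9% of the genes kept, and the correction removes the median of 10 by 10 classes. Promoters came from RefSeq, GRCm38.p6, a patch release of the assembly behind mm10. Values in every library are given for members with at least 5 CPM in 1 library and for those called between a culture with fibroblasts and the monoculture; the others are given by range or class, except that values of Mmp8, Mmp9, Mmp10, Mmp24, Timp4 and some low members were chosen after they were seen. The members, classes and lists were chosen with earlier results of these data known. Of the partner list, 1 gene is not reported here. The calculations were tested on simulated data.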

Additional observations from a re-analysis of the deposited data

How the results depend on the processing

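No paired analysis was possible because there is 1 library per condition, and no library could be left out within a condition. Counts and medians of members were recomputed with DESeq2 size factors, total counts, upper quartile factors, a pseudocount of 0.1 CPM, no filter, a mean of at least 10 CPM, intervals past 2-fold and a correction for GC content and length. With at least 10 CPM, which leaves 20 members, the lower members were 6 (from 11) for spheroid to monoculture, 5 (from 8) for spheroid to co-culture and 8 (from 23) for spheroid to tumor. The higher members were 2 (from 6) for co-culture to monoculture and 5 (from 18) for tumor to monoculture. The medians changed sign there, to 0.004 for spheroid to co-culture, -0.012 for tumor to monoculture and 0.549 for spheroid to tumor. Fewer genes were then tested, and no share or median of all genes is given at that filter. With the correction for GC content and length, 7 members were lower for spheroid to monoculture and 3 higher for spheroid to tumor, and the median of tumor to monoculture rose to 1.63. Upper quartile factors left 2 lower members (from 4) in co-culture to monoculture. The cause was not tested for these. The other counts and medians stayed within their limits. Over 163 named log2 ratios and 652 recomputed values, 24 changed sign, and 1 of these belonged to a ratio over 2-fold, that of Adam15 for spheroid to tumor, at -0.15. Total counts shifted all log2 ratios of spheroid to tumor by -0.36 and of tumor to monoculture by 0.24, and upper quartile factors shifted the latter by 0.25. An alternative without the tumor library, chosen after seeing the data, gave 7 higher and 10 lower for spheroid to monoculture, and 6 and 4 for co-culture to monoculture. At these depths 3 reads correspond to 0.0185 to 0.0262 CPM, and replicate spread is unknown.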

Other observations

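Genes that act on these enzymes were listed as partners, and 19 of the 22 had a mean of at least 1 CPM. In spheroid against monoculture, 4 of the 19 were over 2-fold higher, beside 11.2% of all genes. All 4 belong to the proteins that escort Adam17 or Adam10 to the cell surface. Rhbdf1 had 166 CPM in the spheroid, 113 in the co-culture, 72.0 in the monoculture and 36.8 in the tumor. Rhbdf2 had 102 CPM in the spheroid, 22.4 in the co-culture, 38.6 in the monoculture and 9.29 in the tumor. Both are inactive rhomboid proteins that carry Adam17, and their log2 ratios of spheroid to monoculture, 1.20 (1.17 to 1.24) and 1.40 (1.35 to 1.44), were opposite in sign to that of Adam17, -1.65 (-1.70 to -1.60). Tspan15, a tetraspanin that carries Adam10, had 65.8 CPM in the spheroid, 42.7 in the co-culture, 28.1 in the monoculture and 20.4 in the tumor, and its ratio of spheroid to monoculture was 1.23 (1.17 to 1.28) where that of Adam10 was -1.96 (-1.99 to -1.92). Tspan33, of the same tetraspanin group, had 3.91 CPM in the spheroid, 1.08 in the co-culture, 1.33 in the monoculture and 1.503 in the tumor. The other 4 listed proteins of this kind were within 2-fold, with log2 ratios of 0.85 (0.78 to 0.92) for Tspan5, 0.18 (0.16 to 0.21) for Tspan10, 0.63 (0.58 to 0.68) for Tspan14 and 0.50 (0.46 to 0.55) for Tspan17. None of these ratios is corrected for GC content and length. After that correction Adam10 was still over 2-fold lower and Adam17 was not. Corrected ratios of the partners are not given, so the part of GC content in the opposite signs was not tested.

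The thrombospondins Thbs1 and Thbs2, matrix proteins that bind several of these proteases, were over 2-fold lower in spheroid against monoculture. Their log2 ratios were -2.77 (-2.98 to -2.58) and -2.29 (-2.60 to -1.99), and 17.9% of all genes were over 2-fold lower in that comparison. Thbs1 had 1.76 CPM in the spheroid, 33.9 in the co-culture, 12.1 in the monoculture and 136 in the tumor. Thbs2 had 0.793 CPM in the spheroid, 19.8 in the co-culture, 3.87 in the monoculture and 83.8 in the tumor. Both were lowest in the spheroid and highest in the tumor. In co-culture against monoculture both were over 2-fold higher, with log2 ratios of 1.49 (1.41 to 1.57) and 2.35 (2.22 to 2.49), and fibroblast markers were higher in the same library. Reck, a membrane inhibitor of several MMPs, ranged from 11.8 to 26.9 CPM, Furin, the convertase that activates Mmp11 and Mmp14, from 43.3 to 212 CPM, and Plg, the plasminogen gene itself, was at most 0.0220 CPM. No hypothesis was tested on these values.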
